A study of Mus musculus with 15 samples.

Results

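The base and nucleotide excision repair genes were followed through MLL-AF9 leukemic mouse bone marrow that carried different forms or amounts of the repressor GFI1, with and without the alkylating drug temozolomide (TMZ). The set was a list of 42 gene symbols, of which 19 belong to base excision repair (Ogg1, Mutyh, Ung, Tdg, Mbd4, Nthl1, Neil1, Neil2, Neil3, Smug1, Apex1, Apex2, Polb, Parp1, Parp2, Lig3, Xrcc1, Aptx and Tdp1). The other 23 belong to nucleotide excision repair (Xpa, Xpc, Ddb1, Ddb2, Ercc1, Ercc2, Ercc3, Ercc4, Ercc5, Ercc6, Ercc8, Rad23b, Cetn2, Gtf2h1, Gtf2h2, Gtf2h3, Gtf2h4, Gtf2h5, Uvssa, Xab2, Cdk7, Mnat1 and Ccnh). All 42 symbols were found in each of the 4 expression tables, which hold 17775 to 19035 genes, and all 42 passed the filter on low values (10 or more in 3 or more libraries) in every table.

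Base excision repair removes small damaged bases. A glycosylase cuts out the base, an endonuclease opens the strand at the empty site, a polymerase fills the gap, and a ligase with its scaffold protein seals it, while poly(ADP-ribose) polymerases mark the open strand. Nucleotide excision repair removes bulky lesions in a short single strand: damage is found either by a genome-wide sensor or by a stalled RNA polymerase, the transcription factor TFIIH unwinds the DNA, and a pair of nucleases cuts on both sides. Most of the methylated bases that TMZ makes (N7-methylguanine and N3-methyladenine) are substrates of base excision repair, and the blood-forming marrow, with its many dividing cells, uses both pathways.

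RNA was sequenced from total bone marrow of leukemic mice after poly(A) selection, in 15 libraries that fall into 5 groups of 3. In every group, lineage-depleted donor cells (strain C57BL/6) had been transduced with a retrovirus for the fusion oncogene MLL-AF9 and GFP, sorted for GFP and passed serially through irradiated mice, and marrow of the quaternary recipients was used. In the groups 36N TMZ (genotype GFI1 36N/36N, libraries 4 to 6) and 36S TMZ (GFI1 KI/KI, libraries 1 to 3), leukemic marrow cells had received TMZ at 50 µg/ml, 20 h ahead of RNA isolation. The untreated groups were 36N (genotype GFI1 36N/36N, libraries 4 to 6), with the 36N variant of the human gene, KD (GFI1 KD/KD, libraries 7 to 9), with a low level of the human gene, and 36S (GFI1 KI/KI, libraries 1 to 3), with human GFI1 knocked into the mouse Gfi1 locus. The labels give no age or sex and do not say whether the mice of a group shared a primary leukemia. The titles carry a number after MLL_AF9, 1, 2 or 3 in 36S but 1 throughout 36N and KD, whose meaning is not given. The p-values below therefore measure only the spread between these libraries. Total marrow mixes leukemic and host cells, and fewer cells of a type cannot be told apart from less RNA per cell.

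The tables hold normalized counts, whose totals per library ran from 11265945 to 13032511 in the untreated tables, from 15685301 to 18287681 in the table of 36N with and without TMZ, and from 22254152 to 24264818 in the table of TMZ groups. The reads behind them are unknown. A list of 11 genes for the MLL-AF9 program, among them Hoxa9 and Meis1, also holds Ptprc, Spi1 and Cebpa, which are not particular to it. In the untreated libraries its summed level was 25938 to 31768 in 36N, 27342 to 27824 in KD and 31063 to 33978 in 36S. The sums hide differences of single genes. Against 36S, 2 of 10 genes tested were called higher and 1 lower in 36N, and 1 higher and 1 lower in KD. The reads assigned to mouse Gfi1 do not check the genotype, since the alleles hold the human gene. Values of Gfi1 were at hand only for 36N with and without TMZ, where Gfi1 stood at 723, 504 and 555 with TMZ and at 505, 565 and 367 without.

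Of the 42 members, 35 had a promoter in the RefSeq promoter table (GRCm38.p6), with 38 windows between them. The 250 bases before the RefSeq start of transcription are shown for the 3 base excision genes that were lower in an untreated comparison. They are also shown for Parp2, which held the largest measured TMZ difference within a table. The GENCODE gene starts of Ogg1 (113326972) and Parp2 (50807841) lie inside their windows, so part of each window is within the gene by that annotation. All windows end where the RefSeq start begins. The windows are given 5′ to 3′ on the strand of the gene, and capitals mark matches on either strand to the letters AAATCAC (a GFI1 core motif), GGGCGG (SP1), CCAAT (NFY), CACGTG (E-box), CCGGAAGT (ETS), the NRF1 palindrome, TTTGGCGC and TTTCCCGC (both E2F).
Ogg1 (chr6:113326726-113326975, plus strand): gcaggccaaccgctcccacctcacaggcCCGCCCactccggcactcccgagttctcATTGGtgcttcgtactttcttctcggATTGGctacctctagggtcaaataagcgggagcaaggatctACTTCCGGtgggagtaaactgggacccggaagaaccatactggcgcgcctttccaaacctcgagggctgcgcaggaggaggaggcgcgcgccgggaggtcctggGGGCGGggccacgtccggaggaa
Apex1 (chr14:50924699-50924948, plus strand): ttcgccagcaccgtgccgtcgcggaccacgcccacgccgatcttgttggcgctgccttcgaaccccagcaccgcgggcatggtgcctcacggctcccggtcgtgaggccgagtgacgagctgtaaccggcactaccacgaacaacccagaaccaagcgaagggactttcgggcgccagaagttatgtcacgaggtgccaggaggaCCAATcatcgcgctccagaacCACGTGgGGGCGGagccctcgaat
Neil3 (chr8:53639066-53639315, minus strand): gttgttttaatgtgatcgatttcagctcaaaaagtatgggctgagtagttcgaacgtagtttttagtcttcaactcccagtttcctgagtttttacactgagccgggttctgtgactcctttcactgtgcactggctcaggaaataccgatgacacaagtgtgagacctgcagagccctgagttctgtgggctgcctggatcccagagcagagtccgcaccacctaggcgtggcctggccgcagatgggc
Parp2 (chr14:50807666-50807915, plus strand): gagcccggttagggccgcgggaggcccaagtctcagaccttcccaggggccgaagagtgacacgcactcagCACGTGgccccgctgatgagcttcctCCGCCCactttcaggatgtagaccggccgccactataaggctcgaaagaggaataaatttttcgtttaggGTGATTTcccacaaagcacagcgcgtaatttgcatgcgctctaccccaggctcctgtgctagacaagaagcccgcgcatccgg
No match overlapped another in these windows. The window of Ogg1 held SP1, NFY and ETS letters, and that of Apex1 held SP1, NFY and E-box letters, whereas Neil3 held none of the 8 motifs. Over the 38 windows of members, 63.2% held GGGCGG, 50% CCAAT, 28.9% CACGTG, 18.4% the NRF1 palindrome and 7.89% CCGGAAGT. Among all 32851 windows of the table the shares were 32.7%, 33.8%, 6.02%, 3.74% and 2.88%. AAATCAC was in 1 member window (2.63%), that of Parp2, against 2.75% of all windows, and the E2F letters were in 0 member windows, against 0.417% and 0.895% of all. These are matches of letters only, and they do not show binding.

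Per kilobase of the union of all annotated exons of a gene, the members spanned a wide range in untreated 36S marrow. The order below depends on this choice of length. The union was 5733 bases in Rad23b and 1422 in Apex1, while their longest transcripts had 3810 and 1239. Apex1, the main endonuclease for empty sites, stood highest at 501 ± 75.6 normalized counts per kilobase (SD, n = 3). Rad23b (482 ± 15.5) and Xpc (323 ± 42.6), partners in the damage sensor of nucleotide excision repair, followed, with Ddb1, a subunit of the ultraviolet damage sensor, between them at 393 ± 25.3. Apex1 and Rad23b did not differ beyond their spread. Parp1, which marks DNA breaks, came next at 294 ± 24.7, and Ogg1, the glycosylase for the oxidized base 8-oxoguanine, had rank 7 at 174 ± 8.07. At the low end were the glycosylase genes Nthl1 (15.0 ± 0.889) and Smug1 (14.9 ± 1.85), the transcription-coupled repair gene Ercc8 (13.1 ± 3.17) and the TFIIH subunit gene Gtf2h3 (5.80 ± 3.05).

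The first comparison set untreated 36N against untreated 36S marrow. Of the base excision genes Ogg1 was lower in 36N, and none of the others and no nucleotide excision gene passed the threshold, an adjusted p under 0.05. Ogg1 (chromosome 6, 113326972 to 113335068 in mm10) had 113, 117 and 153 normalized counts in 36N libraries 4 to 6, against 386, 395 and 361 in 36S libraries 1 to 3. The groups lay far apart, with a mean of 128 ± 22.4 in 36N and 380.3 ± 17.6 in 36S (SD, n = 3 each), a ratio of 0.336 (limma with Benjamini-Hochberg adjustment, log2 fold change -1.58, SE 0.17, adjusted p = 0.0019). Across all 13137 genes tested, 4.56% passed, 2.55% higher and 2.01% lower, so 1 of 42 members is a share below that of all genes. The call for Ogg1 held with each of the 6 libraries left out in turn, with adjusted p-values from 0.0018 to 0.016. Camk1, a kinase gene that overlaps Ogg1 on the opposite strand, had 393, 423 and 453 in 36N and 378, 446 and 508 in 36S (log2 fold change -0.06, adjusted p = 0.84), a difference within its spread. In KD, Camk1 had 556, 548 and 536, above all 36S libraries but short of the threshold (limma, 0.31, adjusted p = 0.22). With TMZ in 36N it was higher (limma, 0.85, adjusted p = 0.0074), and between the TMZ groups it did not pass (0.19). Camk1 was looked at after the values of Ogg1 were known.

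Further along the base excision pathway, Apex1 had 519, 444 and 325 in 36N, against 831, 683 and 622 in 36S. The groups did not overlap, but the difference missed the threshold (log2 fold change -0.75, adjusted p = 0.060). Parp1 stood at 2200.3, 2069.6 and 1907 in 36N and 1688, 1558 and 1426 in 36S, also without overlap and also short of the threshold (0.40, adjusted p = 0.078). Polb, the polymerase that fills the single-base gap, had 309.9, 359 and 528 in 36N and 259, 329 and 347 in 36S, with overlapping groups (0.33, adjusted p = 0.40). Library 6 was the high one of the 36N group for Polb and the low one for Apex1. For Xrcc1, the scaffold for the ligase Lig3, the values were 519, 535 and 503 in 36N and 576, 619.8 and 569.9 in 36S, a small difference without overlap (-0.18, adjusted p = 0.39). Ung, which removes uracil, had 308, 236 and 216 in 36N and 309, 329 and 224 in 36S (-0.18, adjusted p = 0.64). Mutyh, which removes adenine paired with 8-oxoguanine, had 101, 124 and 51.9 in 36N and 111, 83.3 and 74.6 in 36S (-0.03, adjusted p = 0.97). Both overlapped between groups, and the fold change of Mutyh turned positive with library weights (0.43). Among the remaining base excision genes the fold changes lay between -0.27 for Smug1, a uracil glycosylase, and 0.44 for Neil2, a glycosylase of oxidized bases, and the median of all 19 was -0.04 against -0.01 for all genes.

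Nucleotide excision genes in 36N marrow had a median log2 fold change of 0.01, with 12 positive and 11 negative values. The lowest p belonged to Cetn2, the small partner of Xpc in the damage sensor, with 146, 133 and 99.7 in 36N against 238, 184 and 198 in 36S. These values did not overlap and did not pass (-0.72, adjusted p = 0.084). The next was Ddb2, the DNA-binding subunit of the ultraviolet damage sensor, at 118, 123 and 126 in 36N and 93.1, 114 and 97.0 in 36S (0.28, adjusted p = 0.43). Xpc itself had 2016, 1845 and 1491 in 36N and 2035, 1588 and 1693 in 36S, a log2 fold change of 0.01 (adjusted p = 0.98) that became -0.03 with quantile normalization. Xpa, which checks the opened damage site, had 138, 196 and 133 in 36N and 148, 101 and 173 in 36S (0.16, adjusted p = 0.76). Ercc1, a subunit of the nuclease that cuts on the 5′ side, had 127, 140.2 and 125 in 36N and 143, 123 and 134 in 36S (-0.03, adjusted p = 0.95, and 0.12 with library weights). Ercc6, the sensor of stalled RNA polymerase, had 531, 641 and 566 in 36N and 514, 601 and 509.6 in 36S (0.10, adjusted p = 0.71). All 4 of these genes had overlapping groups. Values of the groups were fully apart for 5 base excision and 3 nucleotide excision genes, where 26.9% of all genes tested were (13.1% higher and 13.8% lower in 36N).

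**Figure D1:**
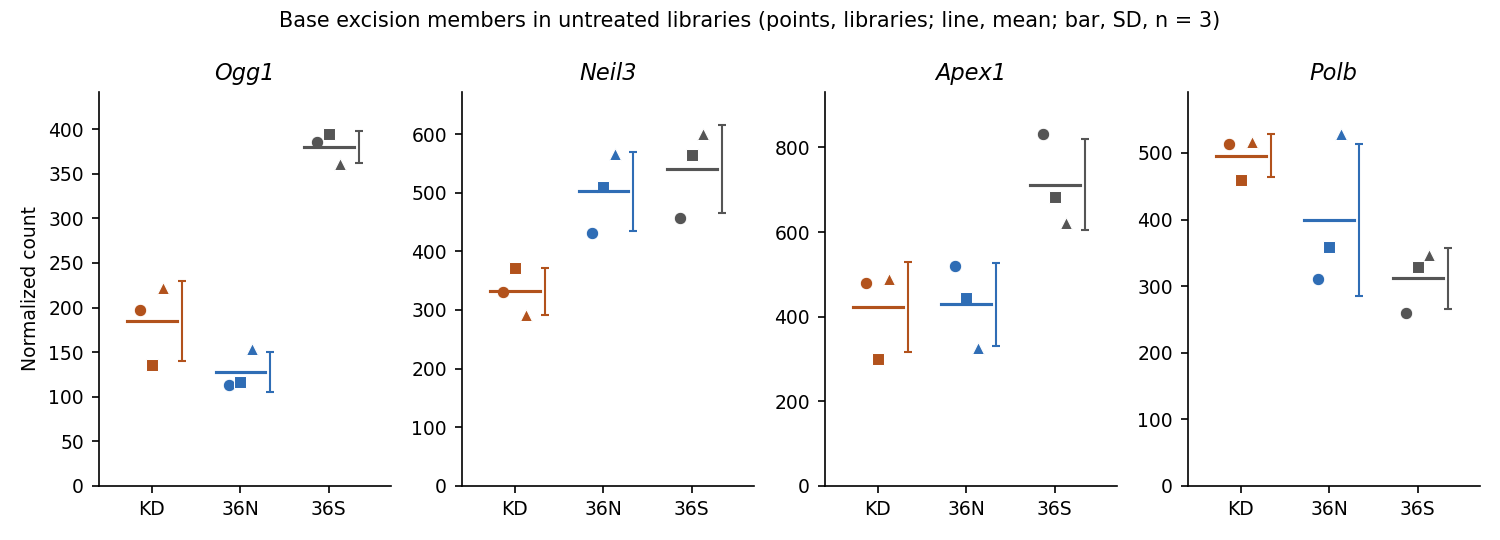
Normalized counts (vertical axis, from 0) of Ogg1, Neil3, Apex1 and Polb in the untreated KD, 36N and 36S groups; points are the 3 libraries of a group (circle, square and triangle in the order of library numbers), lines the means and bars the SD. Ogg1 lay between 113 and 222 in all 36N and KD libraries and between 361 and 395 in 36S.

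The second comparison set untreated KD against untreated 36S marrow, which asks what a low level of GFI1 goes along with. The 36S libraries are the same as above, with identical values, so both comparisons share them. In KD, 3 base excision genes were lower (Ogg1, Neil3 and Apex1), 1 was higher (Polb), and 0 of the 23 nucleotide excision genes passed. Of all 13109 genes tested, 11.5% passed, 6.61% higher and 4.86% lower. The 4 of 42 members are thus a share close to that of all genes.

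Ogg1 had 197, 136 and 222 in KD libraries 7 to 9, against 386, 395 and 361 in 36S (log2 fold change -1.07, SE 0.20, adjusted p = 0.0094). Set side by side, its mean was 128 ± 22.4 in 36N, 185 ± 44.5 in KD and 380.3 ± 17.6 in 36S (SD, n = 3 each). Neil3 (chromosome 8, 53586867 to 53639065), a glycosylase of oxidized bases made mainly in dividing cells, had 332, 372 and 291 in KD and 457, 565 and 600.2 in 36S (log2 fold change -0.70, SE 0.16, adjusted p = 0.025). No KD library reached the lowest 36S library for Neil3, while the 36N libraries, at 431, 511 and 566, overlapped with 36S (-0.11, adjusted p = 0.74). Apex1 (chromosome 14, 50924968 to 50927139) had 479, 300.4 and 489 in KD and 831, 683 and 622 in 36S (log2 fold change -0.77, SE 0.21, adjusted p = 0.042), with library 8 the lowest. Polb (chromosome 8, 22628126 to 22653435) was the member that rose: it had 513, 459 and 516 in KD and 259, 329 and 347 in 36S (log2 fold change 0.68, SE 0.16, adjusted p = 0.025). All 3 KD libraries lay above all 3 36S libraries.

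How many base excision genes passed in KD depended on single libraries. The count was 4 with all libraries, 0 without 36S library 2, 1 without KD library 7 or 9, 2 without 36S library 1 or 3, and 5 without KD library 8. Ogg1 missed the threshold only without 36S library 2 (adjusted p = 0.053). Apex1 missed it without each library but KD library 8, Neil3 without 36S libraries 2 and 3 and KD libraries 7 and 9, and Polb without 36S libraries 1 and 2 and KD libraries 7 and 9. With equal library totals the median gene moved to -0.13 and the split of all called genes to 605 higher and 936 lower, against 866 and 637 as deposited. Polb then stood at 0.56 (adjusted p = 0.060), Ung joined the lower genes at -0.71, and the 4 called members were all lower.

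Other base excision genes in KD did not pass. Parp1 had 2180.1, 2049 and 2030.2 in KD and 1688, 1558 and 1426 in 36S (0.42, adjusted p = 0.055), and it passed without KD library 8. Ung had 213, 159 and 198 in KD and 309, 329 and 224 in 36S (-0.59, adjusted p = 0.097). Xrcc1 stood at 553, 460.3 and 493 in KD and 576, 619.8 and 569.9 in 36S (-0.23, adjusted p = 0.31). Each of these groups was free of overlap, which held for 14 of the 19 base excision genes and 9 of the 23 nucleotide excision genes in KD, and for 31.5% of all genes (15.7% higher and 15.8% lower in KD). Mutyh overlapped, with 116, 70.5 and 88.2 in KD and 111, 83.3 and 74.6 in 36S (0.02, adjusted p = 0.97, and -0.10 with equal totals). The glycosylase genes Tdg (-0.35), Nthl1 (-0.64), Smug1 (-0.36) and Mbd4 (-0.15) and the ligase gene Lig3 (-0.34) had negative fold changes, and the end-cleaning gene Aptx (0.49) and Neil1 (0.31) positive ones. The median of the 19 was -0.22, against -0.01 for all genes.

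Among nucleotide excision genes in KD, the 2 with the lowest p were the sensor genes Cetn2 and Rad23b. Cetn2 had 161, 127 and 161 in KD and 238, 184 and 198 in 36S (-0.47, adjusted p = 0.15). Rad23b had 3449, 3232 and 3331 in KD and 2685, 2739.5 and 2859 in 36S (0.27, adjusted p = 0.17). Xpc stood at 2234, 2055 and 2239 in KD and 2035, 1588 and 1693 in 36S (0.30, adjusted p = 0.19). For all 3 genes of this sensor the groups lay apart, Cetn2 lower and Rad23b and Xpc higher, without passing. Xpa had 194, 157 and 169 in KD and 148, 101 and 173 in 36S (0.33, adjusted p = 0.42). Ddb2 had 83.4, 99.4 and 97.2 in KD and 93.1, 114 and 97.0 in 36S (-0.12, adjusted p = 0.78). Ercc1 had 179, 97.6 and 194 in KD and 143, 123 and 134 in 36S (0.18, adjusted p = 0.73). The groups of these 3 genes overlapped, as did those of Ercc6, which had 459.6, 663 and 416 in KD and 514, 601 and 509.6 in 36S (-0.10, adjusted p = 0.78). In Ercc1 and Ercc6, library 8 stood apart from the other KD libraries, low in the one gene and high in the other. The 5 numbered subunits of TFIIH, Gtf2h1 to Gtf2h5, had fold changes from -0.35 to 0.24, and the median of the 23 genes was -0.07.

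Of 13 other base excision genes, 0 passed in 36N and 1 in KD: Parp3, a further break-sensing polymerase, was higher, with 1076, 981 and 1452 in KD and 581, 709 and 722 in 36S (0.79, adjusted p = 0.018). Of 11 other nucleotide excision genes tested, 0 passed in 36N and 2 rose in KD. These were Cul4b, a ubiquitin ligase scaffold that works with Ddb1 (0.56, adjusted p = 0.018), and Hmgn1, a nucleosome-binding protein of transcription-coupled repair (0.95, adjusted p = 0.016). Mpg, the glycosylase that removes methylated purines, had 153, 106 and 94.7 in 36N, 117, 105 and 115 in KD and 72.7, 107 and 119 in 36S, with overlap throughout. The log2 fold changes were 0.24 in 36N and 0.20 in KD. The ligase Lig1 (-0.43 in 36N and -0.47 in KD), the flap nuclease Fen1 (-0.17 and -0.36) and the sliding clamp Pcna (-0.39 and -0.24) did not pass. Of 17 gap-filling and replication genes 0 passed in either comparison, with medians of -0.19 in 36N and -0.27 in KD, and of 18 cycling genes 0 passed, with medians of -0.29 and -0.30.

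Some lists of cell markers also differed between the untreated groups. The summed cycling genes ran at 42986 to 49490.1 in 36N, 41851 to 53527 in KD and 54414 to 62797 in 36S. Of 12 monocyte genes, 4 were higher in 36N and 8 in KD, with sums of 54782 to 62386 in 36N, 92292 to 146147 in KD and 45100.3 to 50560.2 in 36S. Of the T and NK cell genes, 0 of 6 tested passed in 36N and 4 of 8 were higher in KD, with sums of 120.1 to 196 in 36N, 222 to 826 in KD and 88.3 to 207 in 36S. Of the mast cell, basophil and eosinophil genes, 1 of 7 was lower in 36N, and 4 of 8 were higher and 2 lower in KD (sums of 564 to 1609 in 36N, 3448 to 5513 in KD and 1787 to 2584 in 36S). Of 7 B and plasma cell genes 0 passed in 36N and 2 were lower in KD (sums of 6425 to 11046 in 36N, 6147 to 6704 in KD and 7634 to 11917 in 36S). Of 10 neutrophil genes, 1 was higher and 0 lower in 36N, and 1 was higher and 2 lower in KD. Their sums overlapped, at 8416 to 17383 in 36N, 8714 to 14733 in KD and 4723 to 59911 in 36S. Every marker of these lists that the tables hold was above 1 in at least 1 library of each group. The part of these cells in the values of Ogg1, Apex1, Neil3 and Polb was not tested.

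**Figure D2:**
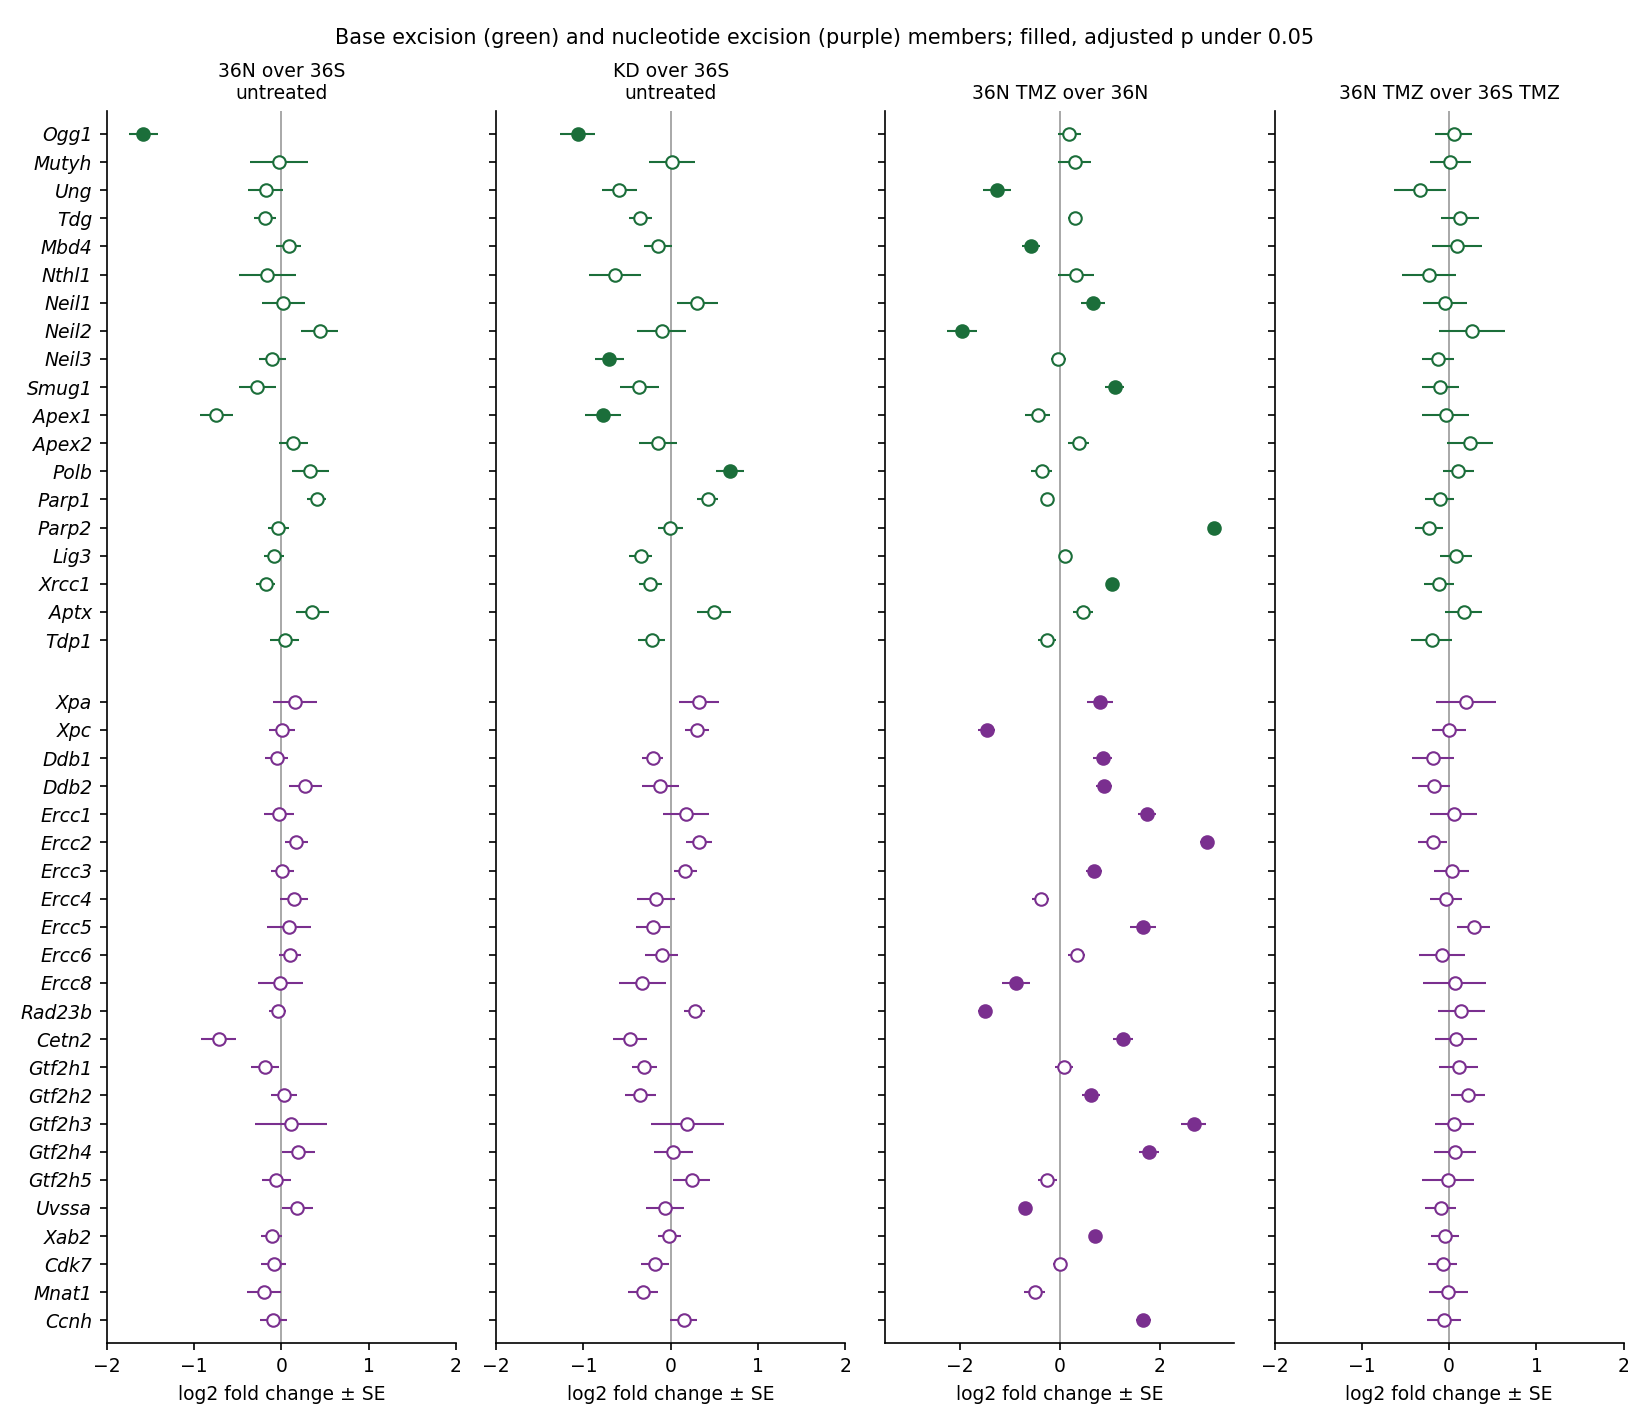
Log2 fold change ± SE (horizontal axes; the third panel has a wider scale) of the 42 members in 4 comparisons, base excision genes in green above nucleotide excision genes in purple; filled points had an adjusted p under 0.05. Filled points number 1 for 36N over 36S, 4 for KD over 36S, 24 for 36N TMZ over 36N and 0 for 36N TMZ over 36S TMZ.

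The third comparison set 36N TMZ against untreated 36N libraries. Before its values are given, 3 features of the TMZ libraries must be stated. They differed, to begin with, from the untreated libraries in cell markers. All 11 mast cell, basophil and eosinophil genes were higher with TMZ, with sums of 88447 to 221238 with TMZ and 714 to 2088 without, and Fcer1a, Mcpt4 and Tpsb2 were at 0 in all untreated 36N libraries. Of 10 genes tested from the MLL-AF9 program list, 9 were lower and 1 was higher (sums of 18856 to 19868 with TMZ, 39944 to 47206 without). Of 6 B and plasma cell genes tested, 6 were lower (215 to 504 with TMZ, 8776 to 15108 without). The effect of TMZ and a difference in the cells sequenced cannot be told apart for any member below. Moreover, the Y-linked gene Ddx3y was at 0 in 36N TMZ library 5 and at 1094 in the untreated 36N library of the same number, and the labels do not say whether a shared number marks a shared mouse. A further feature is that values of the same library differed between tables by a factor that was specific to the gene and nearly the same for the 3 libraries (largest SD among members 4.9e-05 on the log2 scale). Parp2 in untreated 36N, for example, had 567, 548 and 630.3 in the table with 36S and 309.5, 299 and 346 in the table with TMZ. In 36N TMZ it had 2667, 2589.7 and 2840.3 beside untreated 36N, but 1453, 1398 and 1516 beside 36S TMZ. Relative to the median gene, its step into the table with TMZ was -1.41 (log2) in untreated 36N. Its step from there to the table of TMZ groups was -1.46 in 36N TMZ. For such genes the fold change within that table differed from the one taken across tables, so the fold changes and p-values below depend on the table. Which of the 2 lies nearer to the RNA levels was not tested. The 5th and 95th percentiles of the factor of untreated 36N over 11275 genes were -0.72 and 0.38 on the log2 scale. The cause of these factors was not tested.

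With these limits, 24 members passed: 4 base excision genes were higher and 3 lower with TMZ, and 13 nucleotide excision genes were higher and 4 lower. Of all 14390 genes tested 69.7% passed, 36.3% higher and 33.5% lower, so a passing member was the usual case. Groups without overlap were seen in 10 base excision and 19 nucleotide excision genes and in 74.5% of all genes (38.7% higher and 35.8% lower with TMZ). The median log2 fold change was 0.19 for base excision and 0.69 for nucleotide excision genes, against 0.06 for all genes. For each called member a second value is given, taken across tables: 36N TMZ from the table of TMZ libraries less 36N from the table of untreated libraries, relative to the median gene. With equal library totals the median of all genes moved to -0.09, and the called members split into 3 higher and 4 lower base excision genes and 12 higher and 6 lower nucleotide excision genes. The value across tables has no test, and this way of calculating was chosen after the values were seen.

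Among the glycosylases, Smug1 rose, with 256, 289 and 273 in 36N TMZ libraries 4 to 6 and 128, 140.1 and 115 in 36N libraries 4 to 6 (log2 fold change 1.09, SE 0.19, adjusted p = 0.0013; 1.38 across tables). Neil1, a glycosylase of oxidized pyrimidines, had 167, 129 and 179 with TMZ and 93.3, 114 and 90.0 without (0.67, adjusted p = 0.036; 0.86 across tables). Its groups lay apart, but it missed the threshold without 36N library 4 or 6, without 36N TMZ library 4 or 6, and with either other scaling. Neil2 fell most of the base excision genes, with 46.0, 50.1 and 85.6 with TMZ and 201, 238 and 256 without (log2 fold change -1.97, SE 0.30, adjusted p = 6.5e-04; -1.85 across tables). Ung fell too, at 138, 202 and 107 with TMZ and 426, 325 and 300.1 without (log2 fold change -1.26, SE 0.28, adjusted p = 0.0043; -1.48 across tables). In Neil2 and Ung every TMZ library lay below every untreated one. Mbd4, which acts on thymine and uracil opposite guanine, had 464, 649 and 499 with TMZ and 689, 771 and 938 without (-0.57, adjusted p = 0.023; -0.38 across tables), and its call was lost without 36N library 5 or 6 or 36N TMZ library 4 or 6. Ogg1 had 179.9, 198 and 250.1 with TMZ and 162, 167 and 221 without, and its groups overlapped (0.19, adjusted p = 0.47; 0.18 across tables). Mutyh overlapped as well, with 162, 165 and 167 with TMZ and 156, 191 and 80.4 without (0.30, adjusted p = 0.45).

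At the later steps of base excision, Parp2, which marks breaks together with Parp1, had 2667, 2589.7 and 2840.3 with TMZ and 309.5, 299 and 346 without (log2 fold change 3.08, SE 0.12, adjusted p = 1.4e-06). This was the largest fold change of any member, yet it was 0.28 across tables. Xrcc1 had 1067, 1161 and 1098 with TMZ and 538, 554 and 524 without (log2 fold change 1.04, SE 0.11, adjusted p = 1.2e-04; 0.31 across tables). Parp1 did not pass, with 2183, 2331 and 1833 with TMZ and 2691, 2531 and 2344 without (-0.26, adjusted p = 0.10; -0.56 across tables). The groups of Xrcc1 and Parp1 each lay apart. Apex1 did not pass, with 514, 573 and 343 with TMZ and 780.2, 667 and 490.5 without (-0.44, adjusted p = 0.14). Polb had 445, 386 and 438 with TMZ and 433, 502 and 742 without (-0.37, adjusted p = 0.16), and both it and Apex1 overlapped between groups. Neil3, called in KD, stood at -0.03 here. The remaining base excision genes, Tdg, Nthl1, Apex2, Lig3, Aptx and Tdp1, had fold changes from -0.26 to 0.46 and did not pass.

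**Figure D3:**
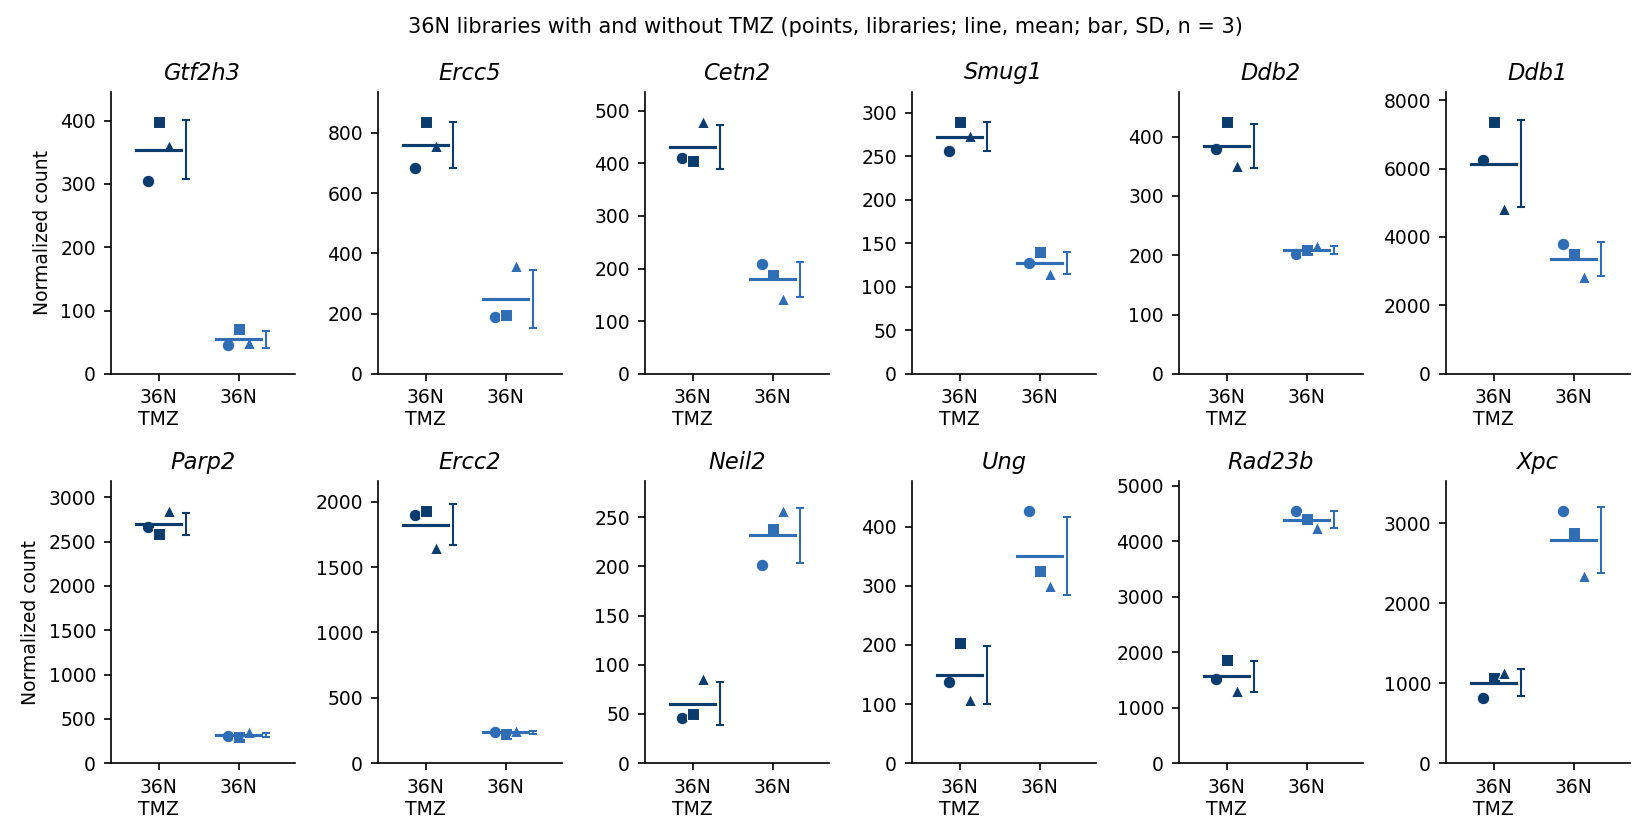
Normalized counts (vertical axes, from 0) of 12 members in 36N TMZ (left, dark) and untreated 36N libraries (right, light); points are libraries 4 (circle), 5 (square) and 6 (triangle), lines the means and bars the SD. Gtf2h3 lay between 305 and 398 with TMZ and between 45.9 and 70.4 without; Rad23b lay between 1301 and 1859 with TMZ and between 4236 and 4536 without.

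In nucleotide excision repair, the genome-wide damage sensor split. Xpc had 818, 1070.2 and 1133 with TMZ and 3147, 2879 and 2339.8 without (log2 fold change -1.47, SE 0.17, adjusted p = 1.7e-04; -1.19 across tables). Rad23b, which stabilizes Xpc, fell to 1525, 1859 and 1301 with TMZ, against 4536, 4398 and 4236 without (log2 fold change -1.51, SE 0.14, adjusted p = 6.7e-05; -1.25 across tables). Their partner Cetn2 rose, with 410.2, 404 and 478 with TMZ and 208, 189 and 143 without (log2 fold change 1.27, SE 0.20, adjusted p = 8.2e-04; 1.26 across tables). The ultraviolet damage sensor was higher in both subunits. Ddb2, a known p53 target in human cells, had 379, 424 and 349.9 with TMZ and 202, 209 and 215 without. Its log2 fold change was 0.87 (limma, SE 0.16, adjusted p = 0.0019), and 1.32 across tables. Ddb1 had 6253, 7353 and 4820.1 with TMZ and 3796, 3491 and 2823 without (0.86, adjusted p = 0.0041; 0.66 across tables). Of 12 p53 target genes, which do not include Ddb2, 10 were higher and 0 lower with TMZ. A link between these genes and Ddb2 was not tested.

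The transcription-coupled branch was mixed. Ercc8, which brings a ubiquitin ligase to stalled polymerase, had 83.5, 122 and 77.3 with TMZ and 172, 137 and 215 without (-0.88, adjusted p = 0.024; -0.61 across tables), and it lost the call without 36N library 4 or 6 or 36N TMZ library 4 or 6. Uvssa, which helps to keep Ercc6 at the site, had 613, 725 and 656 with TMZ and 971, 1230.2 and 1029 without (-0.69, adjusted p = 0.0029; -0.47 across tables). Both fell, with groups apart. Xab2, an Xpa-binding protein that also acts in splicing, rose, with 1337, 1438 and 1467 with TMZ and 928, 882 and 805 without (0.70, adjusted p = 9.8e-04; 0.61 across tables). Ercc6 had 1169, 1103 and 797 with TMZ and 733, 885 and 785 without (0.34, adjusted p = 0.12); it overlapped between groups and passed only without 36N TMZ library 6 (adjusted p = 0.015).

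Several TFIIH subunits were higher with TMZ. Gtf2h3 (chromosome 5, 124579140 to 124597680), the member with the lowest level per kilobase in 36S, had 305, 398 and 359.9 with TMZ and 45.9, 70.4 and 49.0 without (log2 fold change 2.68, SE 0.25, adjusted p = 5.8e-05), and 2.77 across tables. Its lowest TMZ library lay far above its highest untreated one. Ercc2, the XPD helicase, had 1901, 1925 and 1648 with TMZ and 235, 223 and 249 without (log2 fold change 2.95, SE 0.13, adjusted p = 2.2e-06), but 0.55 across tables. Gtf2h4 had 471, 633 and 449.6 with TMZ and 134, 160.0 and 149 without (1.79, adjusted p = 1.3e-04; 0.01 across tables). Ccnh, the cyclin of the TFIIH kinase, had 758, 709 and 711 with TMZ and 248, 234 and 201 without (1.67, adjusted p = 4.5e-05; 0.18 across tables). These 4 had no overlap between groups, and the calculation across tables left a difference over 1 in Gtf2h3 alone of them. The XPB helicase gene Ercc3 had 645, 785 and 861 with TMZ and 459, 531 and 429.7 without (0.69, adjusted p = 0.0060; 0.39 across tables). Gtf2h2 had 387, 463 and 554 with TMZ and 303, 279 and 319 without (0.62, adjusted p = 0.015; 0.50 across tables), and missed the threshold without 36N library 5 and with quantile normalization. Gtf2h1, Gtf2h5, Cdk7 and Mnat1, the last 2 being the kinase and its assembly factor, did not pass, with fold changes from -0.50 to 0.08.

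Of the genes for damage checking and cutting, Ercc5, Ercc1 and Xpa were higher within the table and Ercc4 did not pass. Ercc5, the nuclease for the 3′ cut, had 683, 835 and 757 with TMZ and 189.9, 197 and 359 without (log2 fold change 1.67, SE 0.26, adjusted p = 7.8e-04; 1.77 across tables), with untreated library 6 the high one of its group. Ercc1 had 396, 332 and 353 with TMZ and 104, 115 and 102 without (log2 fold change 1.74, SE 0.18, adjusted p = 1.0e-04; 0.25 across tables), whereas its nuclease partner Ercc4 had 406, 468 and 411 with TMZ and 677, 493 and 521 without, lower without overlap and short of the threshold (-0.39, adjusted p = 0.072). Xpa had 256, 224 and 378 with TMZ and 143, 203 and 139 without (0.80, adjusted p = 0.027), and -0.01 across tables. Xpa was also lost without 36N library 4 or 6 or 36N TMZ library 6, with library weights and with either other scaling.

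Taking the values across tables therefore kept some of these differences and removed others. Of the 24 called members, 23 kept their sign relative to the median gene. With a difference of at least 0.5 on the log2 scale, 15 kept it, 10 higher and 5 lower. Of the 13 nucleotide excision genes called higher, 8 kept at least 0.5 (Gtf2h3, Ercc5, Ddb2, Cetn2, Ddb1, Xab2, Ercc2 and Gtf2h2) and 5 did not (Ercc3, Ercc1, Ccnh, Gtf2h4 and Xpa). A shift of over 1 between the calculations was seen for 5 of 42 members (11.9%), Parp2, Ercc2, Gtf2h4, Ercc1 and Ccnh, and for 10.1% of all genes compared. Among all 7592 called genes compared, 91.9% kept their sign.

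**Figure D4:**
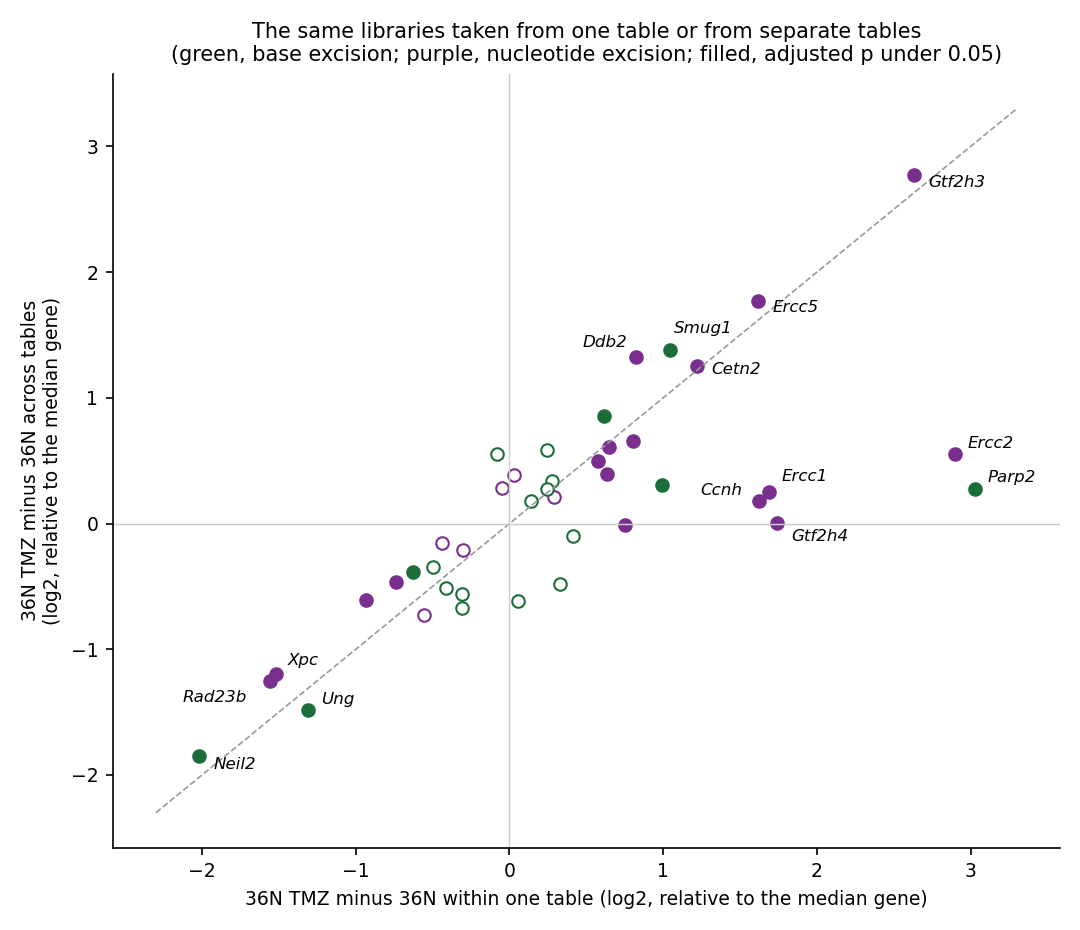
Log2 difference of 36N TMZ less 36N for the 42 members, within one table (horizontal axis) and across tables (vertical axis), each relative to the median gene; green, base excision; purple, nucleotide excision; filled, adjusted p under 0.05 within the table; dashed line, equal values. Gtf2h3 (2.63 and 2.77) lies near the line, while Parp2 (3.03 and 0.28) and Ercc2 (2.90 and 0.55) lie far below it.

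Other genes of the pathways moved with TMZ in both directions. Mpg had 263, 283 and 327 with TMZ and 224, 155 and 139.6 without (0.77, adjusted p = 0.018; 0.93 across tables). Of the 13 other base excision genes, 5 rose, Mpg among them, and 2 fell. Those with low adjusted p included Nudt1, which clears oxidized nucleotides (3.02, 0.78 across tables), Hmgb1, an abundant DNA-bending chromatin protein (-0.70, -1.04 across tables) and Parg, which removes poly(ADP-ribose) (-0.66, -0.59 across tables). Of 11 other nucleotide excision genes tested, 3 rose and 4 fell, led by Hmgn1 (3.22, 0.48 across tables), Cul4b (-1.80, -1.56), and by Actl6a (1.78, 0.77) and Ino80 (-1.47, -0.98), subunits of a chromatin remodeller. Of 17 gap-filling genes 5 rose and 3 fell within the table. The named ones are the polymerase subunit gene Pold1 (1.48, 1.06 across tables) and the clamp loader genes Rfc2 (2.12, 1.67 across tables), Rfc1 (-1.39, -0.44) and Rfc5 (1.31, 0.08). The differences of Rfc1 and Rfc5 thus largely went away across tables. Lig1 (0.02), Fen1 (0.33) and Pcna (-0.06) did not pass.

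The fourth comparison set 36N TMZ against 36S TMZ libraries. No member passed in limma, nor did any of the 14246 genes tested (0%), of which 191 had an unadjusted p under 0.05, none of them a member. Adjusted p-values were at least 0.9998, and none of the 42 had groups without overlap, where 4.76% of all genes did (2.9% higher and 1.86% lower in 36N TMZ). The median log2 fold change was -0.04 for base excision and -0.0019 for nucleotide excision genes, against 0.01 for all genes. Ddx3y was at 0 in 1 library of each group, and without these 2 libraries the count of called genes was again 0. The fit treats the libraries as independent, while deviations from the group means correlated across genes at 0.39, 0.45 and 0.35 between 36N TMZ library 4 and 36S TMZ library 1, 5 and 2, and 6 and 3. The labels do not tie these libraries to each other, so no paired comparison was made and small differences within such pairs were not tested.

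Ogg1 had 260.3, 284 and 354 in 36N TMZ and 266, 287 and 309 in 36S TMZ, a log2 fold change of 0.05 with SE 0.21. The 2 base excision genes with the lowest p were Parp2, with 1453, 1398 and 1516 in 36N TMZ and 1457, 1914 and 1791 in 36S TMZ (-0.23), and Ung. Ung had 178, 260.2 and 136 in 36N TMZ and 224, 290.5 and 196 in 36S TMZ (-0.33). In both the 36N TMZ values tended to be the lower ones, with overlap. Apex1 stood at 765, 844 and 501 in 36N TMZ and 645, 924 and 591 in 36S TMZ (-0.04). Mutyh had 269.8, 273 and 272 in 36N TMZ and 330.0, 286 and 206 in 36S TMZ (0.01), where the spread of 36S TMZ covered all 36N TMZ libraries. For the later steps, Polb had 602, 516 and 580.2 in 36N TMZ and 516, 480.1 and 584 in 36S TMZ (0.11). Parp1 had 3012, 3188 and 2478 in 36N TMZ and 2769, 3211 and 3354 in 36S TMZ (-0.11). Xrcc1 had 1289.9, 1391 and 1301 in 36N TMZ and 1264, 1371 and 1724 in 36S TMZ (-0.12). All of these overlapped.

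Of the nucleotide excision genes, Ercc5 and Ercc2 had the lowest p. Ercc5 had 1052, 1274 and 1141 in 36N TMZ and 771, 1070.4 and 1033 in 36S TMZ (0.28). Ercc2 had 1234, 1238 and 1048 in 36N TMZ and 1308, 1228 and 1482 in 36S TMZ (-0.19). Xpc had 1323, 1715 and 1796 in 36N TMZ and 1384, 1608 and 1838 in 36S TMZ, nearly the same values in both groups. Ddb2 had 636, 705 and 575 in 36N TMZ and 713, 826 and 629 in 36S TMZ (-0.17). Xpa had 293, 254 and 423 in 36N TMZ and 262, 191 and 428 in 36S TMZ (0.19), and library 6 of 36N TMZ and library 3 of 36S TMZ were the high ones. Ercc1 had 359, 298 and 314 in 36N TMZ and 281, 239.9 and 446 in 36S TMZ (0.05). Ercc6 had 1620.3, 1516 and 1083 in 36N TMZ and 1703, 1785 and 1036 in 36S TMZ (-0.08). The other pathway genes Mpg (-0.07), Lig1 (-0.01), Fen1 (-0.04) and Pcna (0.10) did not pass either.

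Whether the difference between 36N and 36S itself changed with TMZ was tested over 12324 genes, each genotype difference being taken within its own table. Of these genes 41 passed (0.333%), and Ogg1 was the 1 member among them. Its difference of 36N less 36S was 0.05 with TMZ and -1.58 without, a change of 1.63 on the log2 scale (SE 0.26, adjusted p = 0.024). The call was lost with the library numbers as a replicate block (adjusted p = 0.063, with 19 genes called), although the numbers were not taken as pairs. In the TMZ table the genotypes overlapped, and in the untreated table every 36N library lay below every 36S library. The next members by p were Parp1 (a change of -0.51, adjusted p = 0.53), Cetn2 (0.80, adjusted p = 0.59) and Apex1 (0.71, adjusted p = 0.76), which did not pass. The mast cell and other markers that set TMZ apart from untreated libraries apply here as well, and their part in the change of Ogg1 was not tested.

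**Figure D5:**
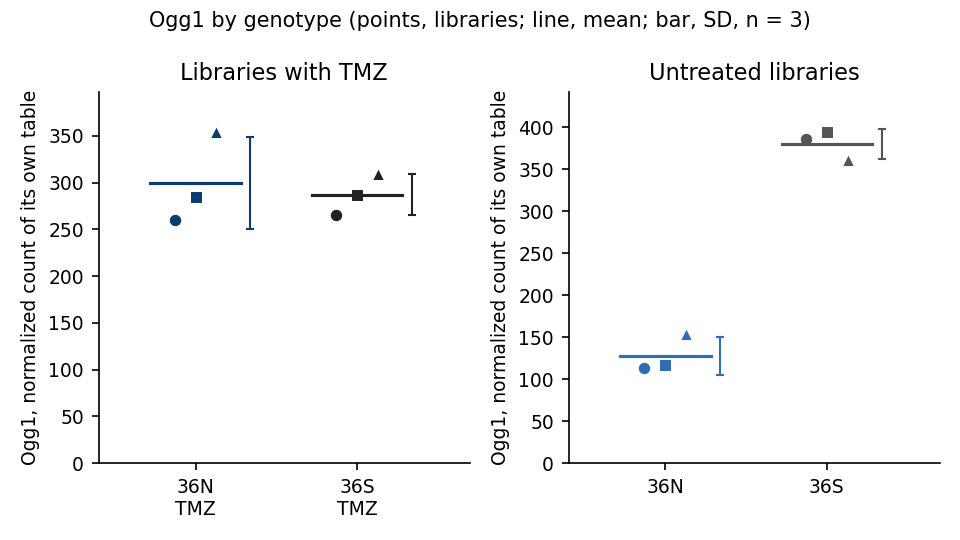
Normalized counts of Ogg1 (vertical axes, from 0, each in the units of its own table) in 36N and 36S libraries with TMZ (left panel) and without TMZ (right panel); points are libraries, lines the means and bars the SD. With TMZ the 36N libraries lie at 260.3 to 354 and the 36S libraries at 266 to 309; without TMZ the 36N libraries lie at 113 to 153 and the 36S libraries at 361 to 395.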

How the data were processed

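Gene values came from 4 tables of normalized counts, a signal that the authors deposited for 36N with 36S, KD with 36S, 36N with and without TMZ, and the TMZ libraries of both genotypes. The submitters' processing notes name Salmon, DESeq2 and mm10, and the deposited values are not whole reads: at most 61.7% of values below 20 in any library came within 0.1 of a multiple of 1 step, so no count test was run and read depth is unknown. All value columns belong to named libraries. Members were matched by symbol, and gene positions come from GENCODE vM21 on mm10.

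In R 4.3.3 with limma 3.58.1, log2(value + 1) was fitted per table over genes of at least 10 in at least 3 libraries, with a trend in the prior variance and Benjamini-Hochberg adjustment over all genes tested. The scale understates changes of low genes. The threshold was an adjusted p under 0.05. The change of the genotype difference with TMZ was fitted as an interaction over genes of both tables. The steps were checked on simulated data. Members and lists were chosen with earlier results of these data known. Values per library are given for each called member, for Ogg1, Mutyh, Ung, Apex1, Polb, Parp1, Xrcc1, Xpa, Xpc, Ddb2, Ercc1 and Ercc6, and for the 2 genes of a kind with the lowest p where none passed; of the other pathway genes, Mpg, Lig1, Fen1, Pcna and up to 4 called genes per list are named. One gene that this rule names is not reported here.

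Library numbers are shared by 36N TMZ and 36N, but the deviations of same-numbered libraries from their group means correlated at 0.02, 0.04 and 0.09, and no pairing by number was assumed. Alternatives were pseudocounts of 0.5 and 5, no filter, a minimum of 50, equal totals, quantile normalization, no trend, library weights, the replicate block and leaving out each library. The calculation across tables and the fit without libraries with Ddx3y at 0 were chosen after seeing the data. The strand setting of the counting is not given in the sources used here, so reads of Camk1 and Ogg1 and of other overlapping pairs (Apex1 with Pip4p1, Ercc1 with Cd3eap, Ercc2 with Klc3) cannot be told apart with certainty.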

Additional observations from a re-analysis of the deposited data

Results flagged for a closer look

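For Ogg1, the difference between 36N and 36S marrow was itself different with and without TMZ. It was 0.05 on the log2 scale with TMZ and -1.58 without, a change of 1.63 (SE 0.26, adjusted p = 0.024 in limma over 12324 genes). The genotypes overlapped with TMZ, and without TMZ 3 of 3 libraries of 36N were below all libraries of 36S. With a pseudocount of 5 the change was 1.60, and with equal totals within each table it was 1.62. With the replicate block the adjusted p was 0.063. The TMZ libraries also differed from the untreated ones in markers of mast cells, basophils and eosinophils, whose part in this change was not tested.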

How the results depend on the processing

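Members called in a comparison kept their direction in every refit of that comparison. Across tables, which is not a refit, Xpa stood at -0.01 relative to the median gene, against 0.75 within the table on that scale. On the scale of the called 0.80 its value across tables was 0.041, so its sign depended on the subtraction. Of the values of called members, 402 stayed on their side of the threshold or within their spread, 42 lost the call, and 13 of the values across tables, which have no test, moved beyond the spread. The call for Ogg1 in 36N held under all of them. Without a trend in the prior variance, 305 genes passed for 36N, and the base excision count for KD was 1, since Neil3, Apex1 and Polb missed the threshold. With library weights, 3304 genes, 4 base excision and 3 nucleotide excision genes passed for 36N, and 4289 genes, 9 base excision and 5 nucleotide excision genes for KD. Leaving out each library in turn gave 188 to 508 genes for 36N, 591 to 2051 genes and 0 to 5 base excision genes for KD, and 0 to 1 genes for 36N TMZ against 36S TMZ. The replicate block left 9985 genes, 7 base excision and 17 nucleotide excision genes for TMZ in 36N, with Neil1 lost (adjusted p = 0.067) and Apex1 gained, and lowered the count for the genotype difference with TMZ to 19. The cause of these changes was not tested.

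Apart from Xpa across tables relative to the median gene, the sign changes were in members that did not pass. With library weights Mutyh was 0.43 and Ercc1 0.12 in 36N, Mutyh -0.042 with TMZ in 36N, and Mutyh -0.14, Apex1 0.0058 and Xpc 0.0074 between the TMZ groups. With quantile normalization Xpc was -0.035 in 36N, Ogg1 -0.011 with TMZ in 36N, and Mutyh -0.030 between the TMZ groups. With equal totals Mutyh was -0.10 in KD and -0.0025 between the TMZ groups. Without the libraries with Ddx3y at 0, Apex1 was 0.0048 and Ercc1 -0.077 between the TMZ groups. Leaving out single libraries moved Ercc1 between -0.084 and 0.027, Mutyh between -0.28 and 0.34, Xpa between -0.063 and 0.32 and Xpc between -0.087 and 0.13 in 36N. In KD it moved Ercc1 between -0.0084 and 0.48, Ercc6 between -0.30 and 0.033 and Mutyh between -0.16 and 0.19, and with TMZ in 36N Mutyh between -0.068 and 0.55. Between the TMZ groups it moved Apex1 between -0.19 and 0.19, Ercc1 between -0.13 and 0.31, Ercc6 between -0.33 and 0.10, Mutyh between -0.18 and 0.16, Ogg1 between -0.076 and 0.15, Xpa between -0.082 and 0.50, Xpc between -0.11 and 0.13, and Xrcc1 between -0.21 and 0.011.

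With 3 libraries a group and no read counts, small differences of low genes such as Mutyh and Gtf2h3 could not be resolved. The libraries are marrow of leukemic mice with mixed cells, and gene values depend on the table they are taken from. In the TMZ comparison the cell markers differ as well as the drug, and the effect of TMZ and a difference in the cells sequenced cannot be told apart.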

Other observations

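The TMZ libraries of the genotypes varied together. Over all genes tested, deviations from the group mean correlated at 0.39 between 36N TMZ library 4 and 36S TMZ library 1, at 0.45 between libraries 5 and 2, and at 0.35 between libraries 6 and 3, whereas the other 6 pairs gave values from -0.24 to -0.12. These values are across genes, which are not independent replicates, and the deviations within a group of 3 sum to 0. Ddx3y was at 0 in 36N TMZ library 5 and in 36S TMZ library 2. Several members followed the same arrangement: Rad23b was highest in 36N TMZ library 5 (2794) and 36S TMZ library 2 (2916) and lowest in 36N TMZ library 6 (1934) and 36S TMZ library 3 (1499), and Xpa was highest in 36N TMZ library 6 (423) and 36S TMZ library 3 (428). These members were chosen after their values were seen, and the labels do not tie these libraries to each other.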
